A study of Mus musculus with 59 samples.

Results

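Loss of RNA during the first 4 h of Actinomycin D was measured in mouse embryonic stem cells (ESCs) knocked out for Zcchc8. The comparison used 4 libraries of the 59 samples in the series: KO replicates 1 and 2 at 0 h and KO replicates 1 and 2 at 4 h. It covered every gene of the deposited decay table, 23974 in all, of which 6952 averaged 10 or more over the 12 Actinomycin D libraries and were tested. The ESCs came from BDF1 blastocysts and were grown with leukaemia inhibitory factor, CHIR99021 and PD0325901, and both genotypes received Actinomycin D at 5 µg/ml. The 12 libraries were wild type (control) and Zcchc8 KO cells at 0, 4 and 8 h, with 2 replicates in each of 6 groups, all labelled as carrying ERCC spike-in RNA. The labels name neither the number of KO clones nor the deleted exons. Separate cultures are not stated either, so the spread between replicates behind each p-value may be purely technical.

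Zcchc8 is the scaffold subunit of the nuclear exosome targeting (NEXT) complex, which joins the RNA helicase Skiv2l2 (Mtr4) and the RNA-binding protein Rbm7 and passes short-lived nuclear RNA to the exosome. Actinomycin D intercalates into DNA and blocks elongation by RNA polymerases, so that RNA already made is no longer replaced. RNA that is lost early under the drug can therefore be RNA with a short lifetime, such as the messages of immediate early genes and of many transcription factors. Lifetimes without the drug were not measured. Messages of the translation and respiration machinery are known to be long-lived.

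Reads counted in genes numbered 882495 and 813702 in the KO 0 h replicates and 1364523 and 930796 in the KO 4 h replicates, within a range of 465324 to 1364523 over the 12 libraries. The values are the authors' normalised read counts, where 1 read was worth 1.68 and 1.76 units at 0 h and 0.561 and 0.969 units at 4 h. Genes listed under several transcripts were poorly measured: 8.47% of 4888 such genes were tested, against 34.3% of 19086 genes with 1 transcript, and Rbm7, Esrrb, Stat3 and Tet1 were listed at 0 in every KO library. The summed value of a naive pluripotency list was 7171 and 6792 at 0 h and 2894 and 3297 at 4 h, with 5 of its 38 genes at 0. The summed value of 25 fibroblast markers was 22195 and 16994 at 0 h and 20805 and 22479 at 4 h, which is 1.77% and 1.37% and then 2.74% and 2.51% of the total without the ribosomal precursor Rn45s. In control these markers took 0.91% to 1.03% at 0 h and 1.56% to 1.64% at 4 h. Collagen genes led them, with Col1a1 at 9415 and 7058 in KO at 0 h and 9051 and 9693 at 4 h, and 3 of the 25 (Pdgfrb, Postn and Sparc) were listed at 0 in KO, of which Pdgfrb and Sparc are among the poorly measured genes with several transcripts. The part of such cells in the results was not tested. In bulk RNA, fewer cells of a type and less RNA per cell cannot be told apart.

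Zcchc8 itself was low in KO cells at both times. Its value was 25.3 and 5.29 in the KO 0 h replicates and 21.3 and 13.6 in the KO 4 h replicates, against 59.3 and 77.5 in control at 0 h and 32.7 and 24.7 in control at 4 h. The KO libraries overlapped between 0 and 4 h, and the change of 0.49 on the log2(value + 1) scale (SE 0.68) was not called (limma adjusted p = 0.689). Skiv2l2, the other NEXT subunit tested, was 273 and 413 at 0 h and 151 and 145 at 4 h. Its log2 change of −1.17 (SE 0.42) fell just short of the threshold (limma adjusted p = 0.0506), and reads from Plpp1, whose exon lies on the opposite strand, cannot be told apart from its own.

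Most transcripts were lower after 4 h, and 998 of 6952 genes fell, which is 14.4% of those tested (limma on log2(value + 1), Benjamini-Hochberg adjusted p below 0.05). Only 2 genes rose, or 0.0288%. A fit of the 4 KO libraries at 0 and 4 h alone, without the spread of the other 8 libraries, gave 2521 lower and 11 higher. The median gene changed by −0.675 on the log2 scale and kept 61.8% of its value, and 5947 genes (85.5%) were lower. The middle of the distribution ran from −1.31 at the 25th percentile to −0.22 at the 75th, and the 5th and 95th percentiles were −2.57 and 0.33. Among the 998 genes that fell, 155 kept under 10% of their value, 415 kept 10 to 25%, 428 kept 25 to 50%, and none kept more. Both 4 h libraries lay below both 0 h libraries in all 998, and in 4365 (62.8%) of all genes tested.

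The count depended on the scale. The authors' values let the total drop, from 1486310 and 1434710 at 0 h to 764858 and 901637 at 4 h. When the recovered reads were scaled by TMM (trimmed mean of M values), which centres the libraries on a common set of genes, the median change became 0.0995, 300 genes (4.32%) were lower and 328 (4.72%) were higher. All 300 were among the 998. A fall under both scales is a loss relative to other RNAs as well as in the deposited units, and TMM values are given below where they differ in call. Leaving out KO 0 h replicate 1 or 2 or KO 4 h replicate 1 or 2 gave 323, 279, 286 or 535 lower genes, and leaving out control 0 h replicate 1 or 2, whose totals without Rn45s were 690451 and 1283660, gave 1562 or 1570.

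Both genes that rose were near the detection limit. Gpr18, a G-protein-coupled receptor gene, was 11.8 and 3.53 at 0 h and 28.6 and 31.0 at 4 h (log2 change 2.02, SE 0.67, limma adjusted p = 0.0358). Rhoa, a small GTPase of the actin cytoskeleton whose exon is overlapped by Tcta on the other strand, was 6.74 and 0 at 0 h and 26.3 and 15.5 at 4 h (log2 change 2.93, SE 0.76, limma adjusted p = 0.0075). They were named after their values were seen, and no gene with a mean of 100 or more rose. Neither call held without KO 0 h replicate 2 (limma adjusted p = 0.366 for Gpr18 and 0.308 for Rhoa) or without KO 4 h replicate 1 (0.19 and 0.136), and that of Gpr18 was also lost without KO 4 h replicate 2 (0.164), control 4 h replicate 1 (0.051) or control 4 h replicate 2 (0.0525). At an unadjusted p below 0.05, 10 genes were higher and 1993 were lower.

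The share of genes that fell was higher at higher levels at 0 h, from 0% of genes with a mean of up to 20 and 5.62% of those between 20 and 50 to 25% of those between 100 and 300 and 22.1% above 300. The 0 h values that define these bins are also the baseline of the change, so part of this trend is built in. At this depth 3 reads at 4 h corresponded to a mean value of 2.29. Cacna2d4 and Spaca4, with 41 and 33 reads at 0 h, had 0 reads in both 4 h libraries, which allows up to 3.88% and 4.88% left (95% counting interval).

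**Figure D1:**
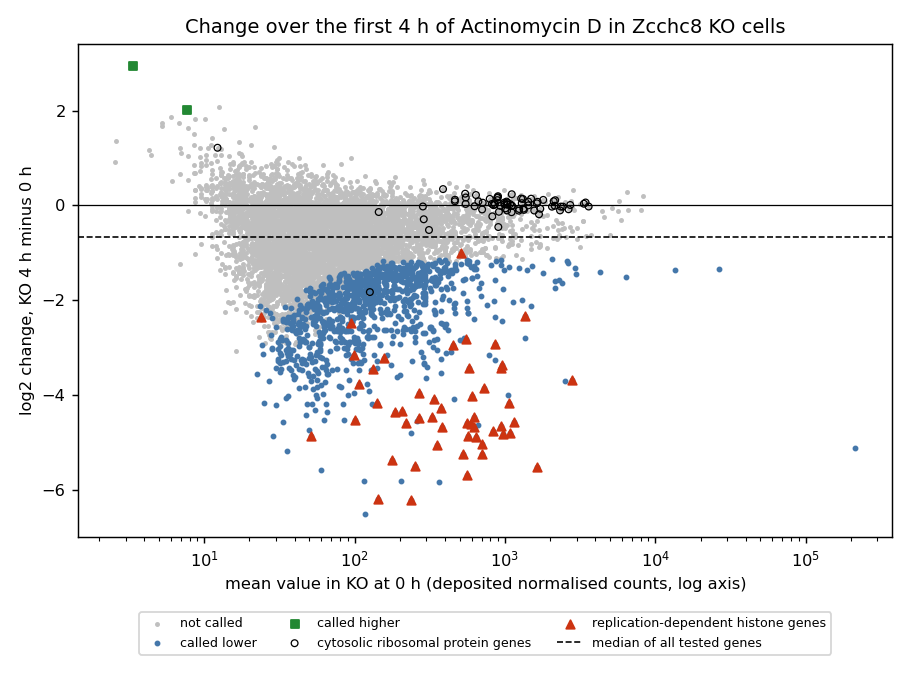
Each point is 1 of the 6952 tested genes, with its mean value in KO at 0 h on a log axis and its log2 change over 4 h. The cloud is centred at −0.675, genes called lower lie at the bottom, and the histone genes form the lowest group among highly expressed genes.

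The replication-dependent histone genes made up the deepest early loss. These genes supply histones for newly replicated DNA, their messages end in a conserved stem-loop in place of a poly(A) tail, and this stem-loop binds SLBP and is known to direct rapid decay when DNA synthesis stops. The stem-loop (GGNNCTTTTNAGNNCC, transcript strand) was found in the annotated 3′ UTR of 33 of the 51 tested histone genes and in 9 (0.138%) of the other coding genes. It is shown for one gene each of the H1, H2A, H3 and H4 families with large falls and for Hist1h4i, which was not called, with the stem-loop in capitals.
Hist1h1d: tcaaacGGCTCTTTTCAGAGCCacccac
Hist2h2ac: caaaaaGGCTCTTTTTAGAGCCaccaaa
Hist1h3b: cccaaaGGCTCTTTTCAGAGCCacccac
Hist4h4: cacaaaGGCCCTTTTCAGGGCCcacaaa
Hist1h4i: cttaaaGGCCCTTTTTAGGGCCaccaca
In GRCm38, the GENCODE M21 build and not the authors' mm9, these 3′ UTR sites lie at chr13:23555781-23555808 (+ strand), chr3:96220412-96220439 (− strand), chr13:23752814-23752841 (+ strand), chr6:136803992-136804019 (− strand) and chr13:22040960-22040987 (− strand), in the order shown.

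Of 51 tested histone genes, 49 fell and 2 were not called, with a median log2 change of −4.47 against −0.675 for all genes; after TMM, 46 were lower and the median was −3.68. Their summed value dropped from 27730 and 29740 at 0 h to 1842 and 2178 at 4 h, which is from 2.22% and 2.40% to 0.243% in each 4 h library of the total without Rn45s. Every family took part: 5 of 5 linker histone H1 genes (median 3.49% left), 12 of 13 H2A genes (5.17%), 12 of 12 H2B genes (3.96%), 10 of 10 H3 genes (3.90%) and 10 of 11 H4 genes (9.20%). The genes with the stem-loop found changed by a median of −4.37 (31 of 33 lower) and those without it in the annotated 3′ UTR by −4.61 (18 of 18 lower). Finding the stem-loop in these annotated ends thus did not set apart the histone genes with more loss.

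Hist1h1d, which encodes linker histone H1.3, was 1629 and 1649 at 0 h and 34.2 and 34.9 at 4 h. The replicates of each time nearly coincided, and the log2 change was −5.53 (SE 0.43, limma adjusted p = 6.8e-13). Hist1h1b, which encodes H1.5, was 692 and 718 at 0 h and 14.6 and 21.3 at 4 h (log2 change −5.24). Hist2h3b, an H3 gene, was 1036 and 1109 and then 40.4 and 34.9 (log2 change −4.80). Hist2h2ac was 591 and 550 and then 29.1 and 11.6 (log2 change −4.87), and Hist4h4 was 222 and 279 and then 9.53 and 1.94 (log2 change −5.49). All 5 kept under 4% of their value, and in all of them the 4 h libraries lay far below the 0 h libraries.

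Hist1h3h, an H3 gene, had the largest fall of a histone, from 224 and 249 to 1.12 and 3.87 (log2 change −6.20, SE 0.73). Some histone genes differed widely between the 0 h replicates. Hist1h3b was 1243 and 164 at 0 h and 16.8 and 9.69 at 4 h, and its call was lost without KO 4 h replicate 1 (limma adjusted p = 0.061) or replicate 2 (0.0902). Hist1h2ba, a testis-type H2B gene, was 32.0 and 254 at 0 h and then had 1 read in the 4 h libraries together, or 0.253% left (95% counting interval 0.00636 to 1.43%), and its call was lost without KO 0 h replicate 2 (limma adjusted p = 0.121). Histone genes are near-identical copies, so reads that match several of them may be lost or misplaced, and the single-gene values are uncertain.

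Rn45s, the 45S precursor of ribosomal RNA made by RNA polymerase I, lost most of its value. It was 234828 and 193438 at 0 h and 5347 and 7151 at 4 h, and its share of the library went from 15.8% and 13.5% to 0.699% and 0.793%. The log2 change was −5.11 (SE 0.39, limma adjusted p = 6.8e-13) and −4.31 after TMM, with 2.92% left. Ribosomal RNA was removed before sequencing, so its level is what that removal left. The stable RNAs of RNA polymerase III were different. Rpph1, the RNA of RNase P, was 2770 and 3493 at 0 h and 2730 and 3696 at 4 h, and Rmrp, the RNA of RNase MRP, was 5482 and 7480 and then 6189 and 9674. Both overlapped between the times, with log2 changes of 0.03 and 0.27 that were not called (limma adjusted p = 0.971 and 0.698); after TMM, Rmrp was called higher by 1.07 (limma adjusted p = 0.032). Ccdc107 overlaps Rmrp on the other strand.

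The locus of the miR-290 to miR-295 cluster, the main microRNA cluster of ESCs, supplied further large falls. Its microRNAs are processed from an unstable nuclear primary transcript, and the reads counted at these rows are of long RNA over the hairpins, not of the mature microRNAs. The mature forms of the 2 hairpins of this locus that fell are given from RefSeq (GRCm38.p6), with the seed, bases 2 to 8, in capitals.
mmu-miR-290b-5p: gCUUAAAAcuaggcggcacuuu
mmu-miR-290b-3p: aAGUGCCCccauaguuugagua
mmu-miR-292b-5p: aCUCAAAAccuggcggcacuuuu
mmu-miR-292b-3p: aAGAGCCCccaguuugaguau
The 4 seeds differ from each other, and all 4 forms lie on the − strand of chromosome 7. Mir290a, Mir291a, Mir292, Mir291b, Mir293, Mir294 and Mir295 lie on the other strand, so Mir290b and Mir292b are antisense to them. Whether reads were counted by strand is not stated, so the strand of the RNA read at these rows cannot be told.

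Mir292b was 135 and 97.0 at 0 h and 1.12 and 0.969 at 4 h, or 135 reads against 3, with 0.916% left (95% counting interval 0.187 to 2.73%). Nlrp12, an innate immune receptor gene annotated across the cluster, was 286 and 443 at 0 h and 5.61 and 4.84 at 4 h. Its log2 change was −5.84 (SE 0.65, limma adjusted p = 6.2e-09), the largest among genes that are not histones and keep at least 4 reads. The exons of Nlrp12 hold Mir292b on their own strand and Mir291a, Mir292, Mir291b, Mir293, Mir294 and Mir295 on the other strand, so its reads cannot be told apart from those of the primary transcript. Mir290b, just outside Nlrp12, was 69.1 and 145 and then 8.41 and 7.75 (log2 change −3.48). Of 16 tested microRNA genes and hosts, 7 fell (43.8% against 14.4% of all genes; 4 after TMM), with a median of −1.65.

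Several single genes lost as much as the histones. Ypel4, of the yippee family of zinc-binding proteins, had the largest fall of all, from 85.9 and 150 to 0.561 and 0. It had 136 reads at 0 h and 1 read at 4 h, or 0.303% left (95% counting interval 0.00762 to 1.72%). Plk2, a polo-like kinase induced by growth factors and by p53, was 204 and 201 at 0 h and 5.61 and 0.969 at 4 h (log2 change −5.82, SE 0.73, limma adjusted p = 1.2e-07). Cited2, a transcriptional co-regulator that binds CBP and p300, was 251 and 222 and then 9.53 and 5.81 (log2 change −4.81). Of the 20 largest falls among called genes that averaged 100 or more with no overlap of the replicates, 14 were histone genes. Beside those described above, these were the H1 gene Hist1h1e, the H2A genes Hist1h2ac, Hist1h2an and Hist1h2ak, the H2B gene Hist1h2bg and the H3 gene Hist1h3g, with log2 changes between −5.70 and −4.83. The other 6 of the 20 were Rn45s, Ypel4, Nlrp12, Mir292b, Plk2 and Cited2.

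Immediate early and signalling feedback genes were lost together. Immediate early genes are switched on by growth factors within minutes without new protein synthesis, and feedback genes such as Sprouty and Smad7 damp the pathway that induces them; many of these messages carry AU-rich elements that recruit decay factors. Of 23 tested immediate early genes 15 fell (65.2% against 14.4% of all genes; 8 after TMM, where 4.32% of all genes were lower), with a median log2 change of −2.50, and their summed value went from 3535 and 2989 at 0 h to 718 and 897 at 4 h. Of 20 feedback genes of the MAPK, BMP, Wnt and Nodal pathways 15 fell (75%; 8 after TMM), with a median of −2.70. Of 9 NF-kB and stress feedback genes 5 fell (55.6%; 3 after TMM), with a median of −2.64. None of the members of these 3 lists rose, but only 2 of all 6952 genes (0.0288%) did, so this does not set the lists apart. As with the other lists, members were chosen with earlier results of these data known, so the shares are descriptions.

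Ier2, an immediate early transcriptional regulator, was 288 and 291 at 0 h and 25.2 and 30.0 at 4 h (log2 change −3.35, SE 0.51, limma adjusted p = 6.6e-06). Cyr61, a secreted matrix protein of the CCN family, was 281 and 236 and then 12.9 and 7.75 (log2 change −4.55). Among the feedback genes the loss had a similar size. Smad7, the inhibitor of TGF-beta and BMP signalling, was 403 and 347 and then 76.8 and 57.2 (log2 change −2.48). Spry2, an inhibitor of FGF signalling, was 106 and 89.9 and then 7.29 and 13.6 (log2 change −3.17). Hes1, a repressor that turns off its own gene, was 92.6 and 68.8 and then 4.48 and 4.84 (log2 change −3.84). In the third list, Nfkbia, the inhibitor of NF-kB, was 53.9 and 70.5 and then 2.80 and 0.969 (log2 change −4.52), and Sesn2, a stress-induced regulator of mTORC1, was 157 and 115 and then 15.1 and 23.2 (log2 change −2.77).

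A match to the AU-rich nonamer TTATTTATT, searched on the transcript strand of annotated 3′ UTRs, was present in 461 (7.06%) of 6532 coding genes other than histones. It is shown in capitals for 5 genes that fell, since the AU-rich element is the best known instability signal of such messages.
Plk2: aactttTTATTTATTacagcc
Nfkbia: cacgttTTATTTATTgtgctt
Klf5: ttatcaTTATTTATTttgtgg
Zfp36l2: tttaacTTATTTATTatcttg
Zfp870: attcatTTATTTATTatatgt
The sites lie at chr13:110400738-110400758 (+ strand), chr12:55489612-55489632 (− strand), chr14:99314663-99314683 (+ strand), chr17:84184918-84184938 (− strand) and chr17:32879566-32879586 (− strand) of GRCm38. Among genes with a match 16.9% fell, and among genes without one 12.6%, against 12.9% of these coding genes as a whole. The median changes were −0.78 and −0.64. Genes with a match also had longer transcripts (median 4504 against 2929 bases), and the share that fell differed with length. Ier2, Cyr61 and Hes1 had no match in the annotated 3′ UTR. Elavl1, Cycs and Slc2a3 had a match and were not called lower. A match is a run of letters and not a measured site.

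Among transcription factors of the ESC state, Sox2 and several Kruppel-like factors fell. Sox2, a core pluripotency factor, was 852 and 867 at 0 h and 74.0 and 107 at 4 h (log2 change −3.26, SE 0.42, limma adjusted p = 1.9e-07). Klf4, a naive pluripotency factor, was 812 and 758 and then 70.1 and 109 (log2 change −3.15). Klf2 was 453 and 361 and then 45.4 and 46.5 (log2 change −3.11), and Klf5 was 438 and 398 and then 71.2 and 62.0 (log2 change −2.63). Each kept between 10.5 and 15.9% of its value with no overlap between the times. Fgf4, the autocrine FGF ligand of ESCs and a target of Sox2 and Pou5f1, was 300 and 309 and then 25.8 and 30.0 (log2 change −3.40, SE 0.46, limma adjusted p = 5.2e-07).

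Pou5f1 (Oct4), the partner of Sox2, stayed within the spread of the replicates. It was 258 and 303 at 0 h and 242 and 266 at 4 h, with a log2 change of −0.14 (SE 0.39, limma adjusted p = 0.862) that became 0.65 after TMM and was called under neither scale. Dppa5a, a small RNA-binding protein of ESCs, was 411 and 464 and then 432 and 409 (log2 change −0.05, SE 0.37, limma adjusted p = 0.947; 0.74 after TMM). In the naive pluripotency list 9 of 23 tested genes fell (39.1% against 14.4% of all genes; 6 after TMM), with a median of −0.71 that is close to the median of all genes. By family, 8 of 10 Kruppel-like factors fell (80%; 5 after TMM; median −2.42), as did 5 of 8 Sox factors (62.5%; 1 after TMM; median −1.48) and 5 of 17 forkhead and homeobox factors (29.4%; none after TMM; median −0.91).

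**Figure D2:**
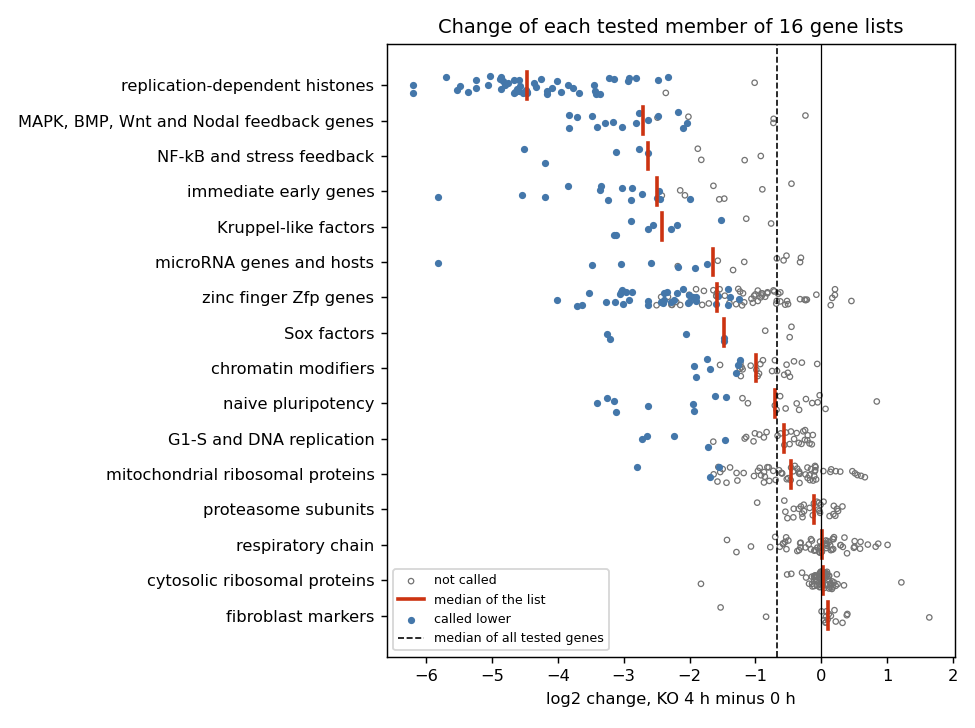
Each point is a tested member of 1 of 16 gene lists, placed by its log2 change over 4 h in KO, with filled points called lower, a red bar at the list median and a dashed line at the median of all genes. Histones sit near −4.47, immediate early, feedback and Kruppel-like genes between −2 and −3, and cytosolic ribosomal protein and respiratory chain genes near 0 on the deposited scale.

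Genes of the RNA decay lists fell in shares near or above that of all genes on the deposited scale, and seldom after TMM. In the list of nuclear exosome subunits and adaptors 3 of 12 tested genes fell on the deposited scale (25% against 14.4% of all genes), with a median of −1.20; after TMM none was lower and 1 was higher. Zfc3h1, which links the exosome to polyadenylated nuclear RNA in the PAXT complex, was 120 and 159 at 0 h and 43.7 and 49.4 at 4 h (log2 change −1.55, SE 0.45, limma adjusted p = 0.018; −0.76 and not called after TMM). Exosc9, a ring subunit of the exosome, was 819 and 1068 and then 327 and 464 (log2 change −1.26, SE 0.39, limma adjusted p = 0.025; −0.47 and not called after TMM), and Ccna2 overlaps it on the other strand. Neither call held when any single one of the 4 KO libraries was left out: the limma adjusted p was 0.0647 and 0.0876 after dropping the first 0 h library, 0.184 and 0.233 after the second, 0.163 and 0.32 after the first 4 h library, and 0.0712 and 0.0535 after the second.

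In the cytoplasm, 4 of 24 tested decay factors fell, with a median of −0.90. This share of 16.7% is near the 14.4% of all genes, and none was lower after TMM. Of 6 AU-rich element binding proteins 2 fell (33.3%), and 1 was lower after TMM. Zfp36l2, which binds AU-rich elements and recruits deadenylases, was 170 and 173 at 0 h and 28.0 and 41.7 at 4 h (log2 change −2.29, SE 0.48, limma adjusted p = 0.00079). Its relative Zfp36l1 was 141 and 148 and then 48.2 and 36.8 (log2 change −1.76, SE 0.47; −0.97 after TMM, limma adjusted p = 0.101). After TMM it was not called. That call was lost when KO 0 h replicate 1 (limma adjusted p = 0.0765) or 2 (0.0944), or KO 4 h replicate 1 (0.0561) or 2 (0.106), was dropped.

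Zinc finger genes with numbered Zfp symbols, most of which encode DNA-binding proteins, supplied many of the genes that fell. Of 95 tested, 36 fell, or 37.9% against 14.4% of all genes, with a median of −1.59; after TMM 7 were lower and 1 was higher. Zfp870 was 271 and 330 at 0 h and 26.3 and 20.3 at 4 h (log2 change −3.63, SE 0.58, limma adjusted p = 1.4e-05). Zfp292 was 96.0 and 132 and then 10.7 and 18.4 (log2 change −2.92). In both, the 4 h libraries were well below the 0 h libraries.

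Chromatin modifiers and RING ubiquitin ligases included both genes that fell and many that were not called. Of 29 chromatin modifiers 7 fell (24.1% against 14.4% of all genes; 3 lower and 1 higher after TMM), with a median of −0.99. Tet2, a 5-methylcytosine oxidase, was 249 and 238 at 0 h and 54.4 and 72.7 at 4 h (log2 change −1.94, SE 0.41, limma adjusted p = 0.001). Ep300, a histone acetyltransferase, was 342 and 236 and then 72.9 and 97.8 (log2 change −1.74, SE 0.41, limma adjusted p = 0.0029). Without KO 4 h replicate 1 neither was called (limma adjusted p = 0.0513 for Tet2 and 0.0995 for Ep300), and Ep300 was also not called without KO 0 h replicate 1 (0.0977). Of 44 RING genes 11 fell (25%; 3 after TMM), among them Trim27, a nuclear ubiquitin and SUMO ligase, at 258 and 286 and then 45.4 and 48.4 (log2 change −2.51).

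On the deposited scale, cell cycle and survival genes fell in shares near or above that of all genes. Of 31 genes of the G1-S transition and DNA replication 5 fell (16.1% against 14.4% of all genes; 2 after TMM), with a median of −0.56, and of 25 mitotic genes 5 fell (20%; none after TMM), with a median of −0.69. Cdt1, the licensing factor of replication origins, was 268 and 235 at 0 h and 39.8 and 38.7 at 4 h (log2 change −2.64, SE 0.48, limma adjusted p = 0.00014). Of 13 BCL2 family and apoptosis genes 3 fell (23.1%; 1 after TMM). Mcl1, an anti-apoptotic BCL2 relative whose message and protein both turn over quickly, was 467 and 652 and then 140 and 107 (log2 change −2.17, SE 0.41, limma adjusted p = 0.00023). Of 16 p53 targets 4 fell (25%; 3 after TMM), with a median of −0.79.

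Noncoding transcripts that fell included some RIKEN clones and opposite-strand transcripts. Of 287 genes annotated as long noncoding RNA, 84 fell (29.3%; 10.5% after TMM), with a median of −1.09, and of 6562 protein-coding genes 886 fell (13.5%; 3.98% after TMM), with a median of −0.65. Genes with RIKEN clone names, a list from which coding genes were not removed, gave 73 lower of 329 (22.2%, and 24 after TMM). This share is thus not one of noncoding RNA alone. Transcripts named as opposite-strand or antisense, with coding genes removed, gave 9 of 34 (4 lower and 1 higher after TMM). G630025P09Rik, a RIKEN noncoding transcript with no coding exon opposite, was 470 and 409 at 0 h and 38.1 and 66.8 at 4 h (log2 change −3.09, SE 0.47, limma adjusted p = 5.8e-06). 0610040F04Rik was 399 and 518 and then 20.2 and 32.9 (log2 change −4.09), and Bhlhe40 overlaps it on the other strand. Zfhx2os was 2139 and 2153 and then 557 and 740 (log2 change −1.74), overlapped by Zfhx2; its call was lost without KO 4 h replicate 1 (limma adjusted p = 0.073).

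In some small noncoding groups no gene was called lower, against 14.4% of all genes. Groups of 8 genes are too small for such a count to be read as a difference from that share. None of 8 structural nuclear long noncoding RNAs was called on the deposited scale (median −0.42; 1 higher after TMM), and Tsix, the antisense partner of Xist, was 394 and 398 at 0 h and 180 and 217 at 4 h without passing the test (limma adjusted p = 0.089). None of 8 small nucleolar and Cajal body RNAs was called (median 0.29; 1 higher after TMM). An exon of a coding gene on the other strand was annotated for 23.8% of tested genes and for 29.6% of those that fell. Whether reads were counted by strand is not stated, so the reads of such partners cannot be told apart.

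The messages of basic metabolism and translation were mostly not called on the deposited scale, where 14.4% of all genes fell and 0.0288% rose. After TMM 4.32% of all genes were lower and 4.72% were higher. None of 70 cytosolic ribosomal protein genes was called on the deposited scale, where their median change was 0.02; relative to the other genes they were higher, with 59 of 70 called higher after TMM and a median of 0.81. Their summed value was 86990 and 85700 at 0 h and 82990 and 91050 at 4 h, while their share of the total without Rn45s went from 6.95% and 6.90% to 10.9% and 10.2%. Rps12, a small-subunit protein, was 1438 and 1421 at 0 h and 1418 and 1444 at 4 h, and the 2 ranges overlapped. On the deposited scale its log2 change was 0.0012 (limma adjusted p = 0.999), and after TMM it was called higher by 0.79 (limma adjusted p = 0.033).

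None of 63 respiratory chain genes was called (median 0.01; 13 higher after TMM), nor any of 29 proteasome subunits (median −0.11; 5 higher after TMM), 13 aminoacyl-tRNA synthetases (median −0.12; 2 higher after TMM) or 14 cholesterol synthesis genes (median −0.29; 1 higher after TMM). Translation factors gave 2 lower of 27 (7.41%, median −0.22), and after TMM 0 were lower and 8 higher. Chaperones gave 2 lower of 21 (9.52%, median −0.17), and after TMM 0 were lower and 7 higher. Lists of 10 to 27 genes are too small for such counts to be read as a difference from the 14.4% of all genes. Among 10 glycolysis genes 1 fell, the muscle-type phosphofructokinase Pfkm, at 75.8 and 77.6 and then 10.7 and 17.4 (log2 change −2.41, SE 0.59). It was still called after TMM, where 4 other glycolysis genes were higher, but not without KO 4 h replicate 1 (limma adjusted p = 0.0853), and Senp1 overlaps it on the other strand.

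Mitochondrial ribosomal proteins gave 3 lower of 63 (median −0.46; 1 lower and 1 higher after TMM), led by Mrps25 at 1383 and 1340 and then 186 and 205 (log2 change −2.79, SE 0.40, limma adjusted p = 2.3e-06), which Nr2c2 overlaps on the other strand. Solute carriers gave 8 lower of 101 (7.92%, below the 14.4% of all genes; 2 lower and 3 higher after TMM). Slc38a2, the stress-regulated amino acid transporter SNAT2, was 337 and 233 at 0 h and 26.9 and 32.9 at 4 h (log2 change −3.19, SE 0.47, limma adjusted p = 3.1e-06). Fibroblast markers (0 lower of 17, and 12 higher after TMM) and collagens (1 lower of 17, and 0 lower and 8 higher after TMM) had medians of 0.10 and 0.06.

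The share of genes that fell differed with the exon density of the transcript. Over 6532 coding genes other than histones, with transcripts from GENCODE M21, the share that fell went from 37.7% of 175 genes with up to 0.5 exons per kb, through 23.2% (0.5 to 1), 17.8% (1 to 2) and 13.2% (2 to 4), to 7.66% of 2547 genes with 4 to 8 and 7.34% of 218 genes with more than 8. The median change went from −1.42 to −0.37 over the same bins, and after TMM from −0.64 to 0.40. The order held in part when the level was limited: for genes averaging 100 or more at 0 h the share went from 47.8% of 178 genes with up to 1 exon per kb to 12.1% (4 to 8) and 14.1% (over 8). Among transcripts of 2 to 4 kb it went from 28.5% to 8.49% (4 to 8) and 16.3% of the 49 genes over 8. Transcript length went the other way, with 4.96% of coding genes under 1 kb and 15.3% of those over 5 kb called lower. Genes share features such as length and level, so these shares are descriptions across genes.

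**Figure D3:**
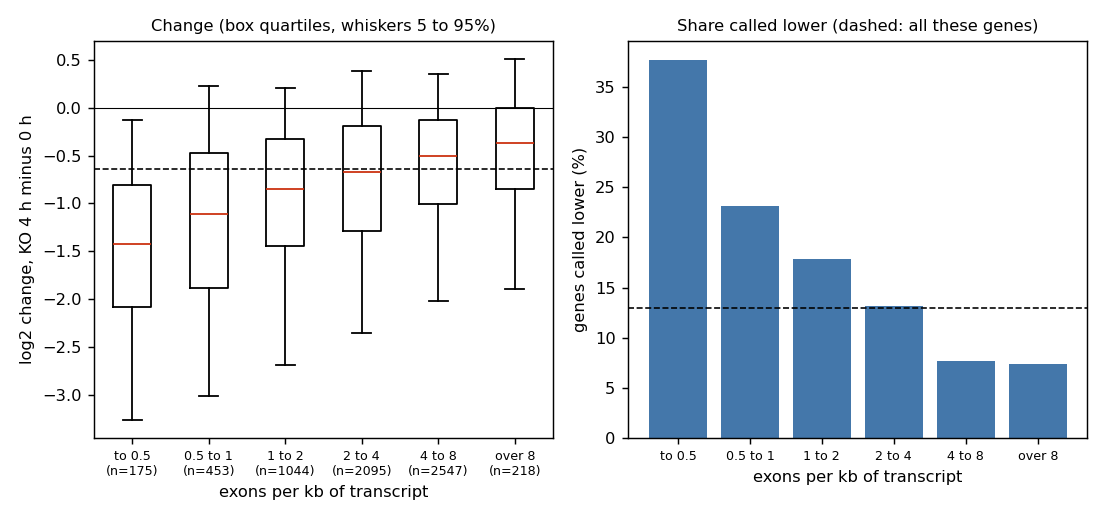
Left, boxes with quartiles and whiskers from the 5th to the 95th percentile show the log2 change over 4 h in KO for 6532 coding genes by exons per kb of transcript; right, bars show the share called lower, and dashed lines mark the median and the share of all these genes. The share goes from 37.7% in the lowest bin to 7.34% in the highest.

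The same contrast in control cells uses 4 other libraries. There 817 genes (11.8%) fell over the first 4 h, with a median change of −0.49. Of the 998 genes lower in KO, 521 were also lower in control, which is 52.2% of the KO genes and 63.8% of the control genes. Across the 6952 genes the 2 log2 changes had a Pearson correlation of 0.658, and 0.875 across genes averaging at least 100, as a description over genes that are not independent replicates. The histone median was −4.07 in control and −4.47 in KO, and the immediate early median was −2.79 in control and −2.50 in KO.

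Tested directly, the early change differed between KO and control in 1 gene of 6952 (0.0144%; limma, adjusted p below 0.05), and at an unadjusted p below 0.05 in 42 genes upward and 179 downward. That gene was Hist1h4i, an H4 gene. In KO it was 495 and 518 at 0 h and 217 and 290 at 4 h, while in control it was 213 and 255 at 0 h and 10.2 and 12.4 at 4 h. The times did not overlap in either genotype, and the 4 h values of KO were at the level of control at 0 h. The changes were −1.01 in KO (limma adjusted p = 0.08) and −4.26 in control, and their difference was 3.25 (SE 0.56, limma adjusted p = 0.00542; 3.41 after TMM). The difference was not called when KO 0 h replicate 1 (limma adjusted p = 0.121) or 2 (0.0839), KO 4 h replicate 2 (0.297) or control 4 h replicate 1 (0.144) was dropped. Reads that also match near-identical H4 copies may be lost or misplaced. Leaving out control 0 h replicate 1 or 2 gave 30 or 9 genes with a difference.

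In the other direction no gene was called; the 3 smallest p belonged to Rnpepl1, Btbd19 and Dpp9. Rnpepl1, a member of the aminopeptidase B family, was 308 and 372 at 0 h and 68.9 and 67.8 at 4 h in KO (log2 change −2.29, SE 0.44, limma adjusted p = 0.00029). In control it was 39.5 and 67.8 and then 33.5 and 51.8 (log2 change −0.31). The KO libraries started well above control and ended nearer to it, and the difference of the changes was −1.98 (SE 0.63). Btbd19 changed by −1.17 in KO and 1.03 in control, and Dpp9, a dipeptidyl peptidase, by −0.70 and 1.37, with neither KO change called. All 3 differences had a limma adjusted p of 1.

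**Figure D4:**
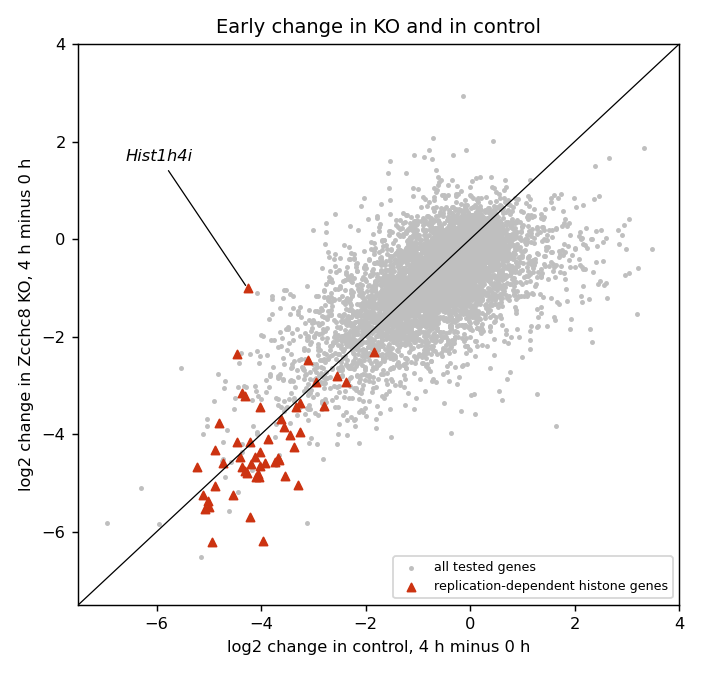
Each point is 1 of the 6952 tested genes, with its log2 change from 0 to 4 h in control on the x axis and in KO on the y axis, and the line marks equal change. Histone genes (triangles) lie along the line at the lower left, and Hist1h4i lies 3.25 above it.

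Few further losses passed the test after 4 h. Between 4 and 8 h the median gene in KO changed by −0.454, and 2 genes (0.0288%) fell further, Cep192 and Hist1h2bm, with 719 genes lower at an unadjusted p below 0.05. After TMM neither was called (limma adjusted p = 0.186 and 0.0708) and the median was −0.08. Both intervals share the KO 4 h libraries, so that a high or low 4 h value moves them in opposite directions, and a gene already near 0 at 4 h cannot fall by as much again. The later change was above the earlier change in 40 genes (0.575%) and below it in none (limma, adjusted p below 0.05), with 515 and 30 genes at an unadjusted p below 0.05. All 40 had fallen by 4 h, with a median early change of −4.14, and their later changes had a median of 0.26 within −1.72 to 1.79; 12 were histone genes. Leaving out single libraries gave from 5 genes (without KO 4 h replicate 2) to 108 (without control 0 h replicate 1). Dropping KO 0 h replicate 1 or 2 gave 13 or 10, dropping control 4 h replicate 1 or 2 gave 22 or 24, and dropping KO 4 h replicate 1, control 0 h replicate 2 or KO 8 h replicate 1 gave 9, 106 or 103.

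The course of single genes after 4 h varied. Lrrc75a, which encodes a protein with leucine-rich repeats, was 568 and 758 at 0 h, 14.6 and 44.6 at 4 h and 30.0 and 34.0 at 8 h. The difference between its later and earlier change was 4.93 (SE 0.77, limma adjusted p = 0.000324), and without KO 4 h replicate 1 it was 3.38 and not called (limma adjusted p = 0.245). Plk2 was 5.10 and 10.1 at 8 h, near its 4 h values (difference 7.01, SE 1.26, limma adjusted p = 0.00227; 5.26 and not called without KO 4 h replicate 2, limma adjusted p = 0.227). Hist1h1d was 18.5 and 26.5 at 8 h, under its 4 h values, and Sox2 was 54.2 and 76.8, which overlapped its 4 h values. Rn45s was 2622 and 3409 at 8 h, under its 4 h values. Fgf4 was 38.3 and 50.4 at 8 h and lay above its 4 h values. Of the genes with a later change below the earlier one the smallest p was that of Cox5b, a subunit of cytochrome c oxidase, at 80.8 and 108 at 0 h, 174 and 204 at 4 h and 139 and 110 at 8 h. Neither its early change of 1.01 (limma adjusted p = 0.078; 1.79 and called after TMM) nor the difference of −1.61 (limma adjusted p = 0.474) was called on the deposited scale.

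**Figure D5:**
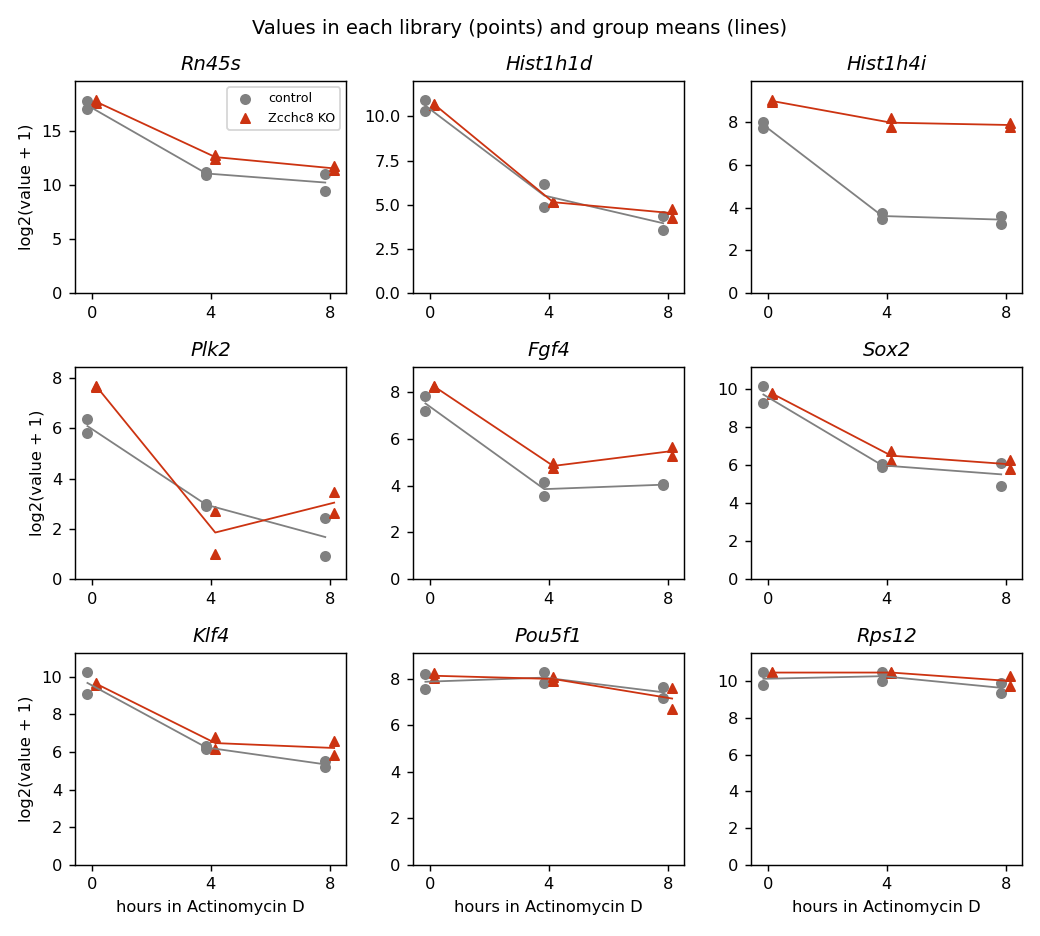
Points show log2(value + 1) of 9 genes in each library at 0, 4 and 8 h in control (circles) and Zcchc8 KO (triangles), and lines join the means of 2 replicates. Rn45s, Hist1h1d, Plk2, Fgf4, Sox2 and Klf4 drop more between 0 and 4 h than between 4 and 8 h, Pou5f1 and Rps12 stay near their 0 h level at 4 h on this deposited scale, and Hist1h4i goes from 495 and 518 to 217 and 290 in KO and from 213 and 255 to 10.2 and 12.4 in control.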

How the data were processed

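The deposited table holds a normalised signal, in which each library's read counts are scaled by its own constant. The submitters' processing notes name DESeq2, HTSeq 0.6.0 and TopHat2 2.1.1 with the build mm9. All values (100%) were whole multiples of 1 read within 0.001 reads, so reads were recovered. The sources used here do not give how strand was treated or how the constants were set, and the table as used held 0 spike-in rows. Of 33896 rows, 978 repeated rows were dropped, and transcripts were summed by symbol.

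Genes with a mean of at least 10 over 12 libraries were tested with limma 3.58.1 (R 4.3.3; trend, robust, two-sided, Benjamini-Hochberg) on log2(value + 1), which understates the change of low genes, in 1 fit of 6 group means with 6 residual degrees of freedom. The later against the earlier change in KO, and the early change in KO against control, were contrasts of this fit. Alternatives were TMM scaling, edgeR 4.0.16, DESeq2 1.42.0, other pseudocounts and filters, fewer libraries and a replicate block. Of 23974 symbols, 23779 (99.2%) matched GENCODE M21 (GRCm38), used for strand overlap, transcript features and sites; the files give no coordinates. Gene lists and members were chosen with earlier results of these data known. Named genes were the NEXT genes and Rn45s, the 20 largest falls and 10 largest rises called with a mean of at least 100 and no overlap of replicates, the 6 largest called differences in each direction (or the 3 smallest p), and up to 4 members of each list with the smallest p and 2 with the largest. Counting intervals (95%, exact, reads of both replicates) cover counting error only. The other 47 samples were not analysed here.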

Additional observations from a re-analysis of the deposited data

Results flagged for a closer look

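The early change differed between KO and control by an interaction test in Hist1h4i, by 3.25 on the log2 scale (limma adjusted p = 0.00542). Its adjusted p was 0.0839 to 0.297 when KO 0 h replicate 1 or 2, KO 4 h replicate 2 or control 4 h replicate 1 was dropped.

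The change from 4 to 8 h differed from the change from 0 to 4 h within KO in 6 genes that meet the rule for named genes, by 7.01 for Plk2, 6.69 for Mir292b, 5.63 for Nlrp12, 5.11 for Hist1h3h, 5.00 for Hist1h3g and 4.93 for Lrrc75a. Genes near 0 at 4 h, such as Mir292b at 1.12 and 0.969 against 2.29 for 3 reads, could not fall by the same amount again, so the direction of their difference was set by their 4 h level. At 8 h these 6 genes had values between 0 (Hist1h3h) and 34.0 (Lrrc75a). After TMM the calls of Mir292b, Hist1h3h and Hist1h3g were lost (limma adjusted p = 0.0875, 0.109 and 0.109). Each of the 6 calls was also lost when a KO library was dropped, that of Plk2 without KO 4 h replicate 2 (limma adjusted p = 0.227), Lrrc75a without KO 4 h replicate 1 (0.245), Hist1h3g without KO 0 h replicate 2 (0.0554) or KO 4 h replicate 2 (0.7), and Nlrp12 without KO 0 h replicate 2 (0.0854) or KO 4 h replicate 1 (0.0992) or 2 (0.115). Those of Mir292b and Hist1h3h were lost when any of the 4 KO libraries at 0 and 4 h was dropped (0.096 to 0.245 and 0.109 to 0.979), and also without KO 8 h replicate 2 for Mir292b (0.135) and without control 4 h replicate 1 (0.0687) or 2 (0.0672) for Hist1h3h. Groups of 2 replicates were too small for a search for single libraries far from the rest.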

How the results depend on the processing

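Both the scaling and the choice of libraries moved the results. Genes lower numbered 998 and were 300 under limma after TMM, 415 under edgeR with TMM and 484 under DESeq2; genes higher were 328, 389 and 308, and the median change of all genes turned to 0.0995, 0.0956 and 0.0045. Pou5f1 turned to 0.65, 0.65 and 0.56 and Dppa5a to 0.74, 0.74 and 0.65 under these 3 settings. With a minimum mean of 50, 553 genes were lower and 0 higher (median −0.519); with no filter 17 were higher (median −0.584), no gene differed between KO and control and 4 differed between the later and earlier change. The 4 KO libraries at 0 and 4 h alone gave 2521 lower and 11 higher, the 6 KO libraries 4 higher, and edgeR on the deposited factors 1 higher. The later against the earlier change differed in 131 genes under DESeq2, 85 with a pseudocount of 5 and 22 with a pseudocount of 0.25. Restricting to genes without a coding exon on the other strand, chosen after seeing the data, gave 741 lower genes.

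Leaving out 1 library at a time, where a lone sample is assumed to vary like the other groups, gave 279 to 1570 lower and 0 to 7 higher genes, 0 to 30 with a difference from control, 5 to 108 between the later and earlier change, and a median of −0.771 to −0.577. Changes near 0 then crossed it: Rpph1 ranged from −0.19 to 0.25, Rps12 from −0.012 to 0.015, Rmrp from −0.049 to 0.60, Zcchc8 from −0.54 to 1.52 and Dppa5a from −0.14 to 0.032. The cause was not tested.

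The replicate numbers did not pair the samples: deviations of same-numbered replicates correlated at −0.07 to 0.117 over 15 pairs of groups. A replicate block over the 12 libraries gave 1322 lower and 4 higher genes and 93 with a different later change; a block within genotype gave 1426, 4 and 99.

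Of the 53 genes named in the text and called over the first 4 h, 50 kept the call after TMM and 42 under every setting in which they were tested; the other 11 lost it without 1 library, as given beside them. Depth was 465324 to 1364523 reads per library.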
